A study of Mus musculus with 24 samples.

Results

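Bound RNA of injured mouse kidney was compared between day 7 and day 2 after bilateral ischemia-reperfusion. The comparison takes 6 of the 24 libraries of the series, 3 mice at each day, and covers every gene of the deposited expression table. All mice were male, 8 to 10 weeks old, of mixed background and heterozygous for Kim1-GCE and EGFPL10a. They were given tamoxifen 6 hours before and 24 hours after injury, and both renal pedicles were clamped for 20 minutes in the mice of both days. Sham mice, whose pedicles were not clamped, appear here only as levels given beside the comparison. A lysate of kidney was pulled down with an antibody against GFP, giving bound RNA that the labels call specific to the tagged cells, while the rest, unbound RNA, stands for the total kidney. Each day holds different mice, so the 2 days are separate groups of 3.

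Kim1, encoded by Havcr1, is a membrane protein that proximal tubule cells make after injury and hardly make in health. EGFP-L10a is a ribosomal protein fused to a fluorescent tag, so that a pull-down of the tag brings down ribosomes with the messages they carry. Proximal tubule cells reabsorb most of the filtered salt, sugar, phosphate and amino acids. After ischemia many of them die, and survivors lose specialised functions, divide and then regain those functions, while some stay in an inflammatory state known as failed repair. The comparison asks how the bound messages differ between an early and a later time of this course. Because the tag follows Havcr1 activity around the time of tamoxifen, cells that first expressed Kim1 later need not carry it, and sham bound RNA has few tagged cells to come from.

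The values are RPKM, reads scaled to gene length and library size, and the test covered the 13721 genes that reached 1 RPKM in 3 or more of the 24 libraries. Changes are log2 fold changes fitted by limma on log2(RPKM + 0.5), which understates the change of low genes, and a gene is called at an adjusted p under 0.05. The depth of the 6 libraries, inferred from the spacing of low values, was about 17100000 to 23900000 reads. The top 10 genes made up 16.2% to 20.4% of all RPKM of a library. Across tested genes the day 7 libraries correlated with each other at r of 0.972 to 0.978, and the day 2 libraries at 0.907 to 0.951, lowest between the day 2 libraries 1 and 3. Libraries of different days correlated at 0.914 to 0.930, so the day 2 libraries 1 and 3 were less alike than any pair across the days.

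Between day 2 and day 7, 973 of the 13721 genes differed, 7.09% of those tested. Of these, 488 rose (3.56%) and 485 fell (3.53%). At least a 2-fold change was seen for 738 of the calls, 351 higher and 387 lower, and at least a 4-fold change for 87 higher and 92 lower. The median log2 fold change of all tested genes was -0.04. The libraries of the 2 days did not overlap for 953 of the 973 calls. Over all tested genes the 3 day 7 libraries stood above every day 2 library for 11.7% and below for 14.1%. The 3 mice a day limit these counts: without the day 2 library 2 there were 450 calls, without the day 7 libraries 1, 2 and 3 there were 532, 427 and 505, and without the day 2 library 3 there were 1429. Of the 126 called genes named in the text, 69 stayed called in each of the 6 fits that leave out a library. A fit of the 6 libraries alone gave 406 calls, and one of the 12 bound libraries gave 285.

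**Figure D1:**
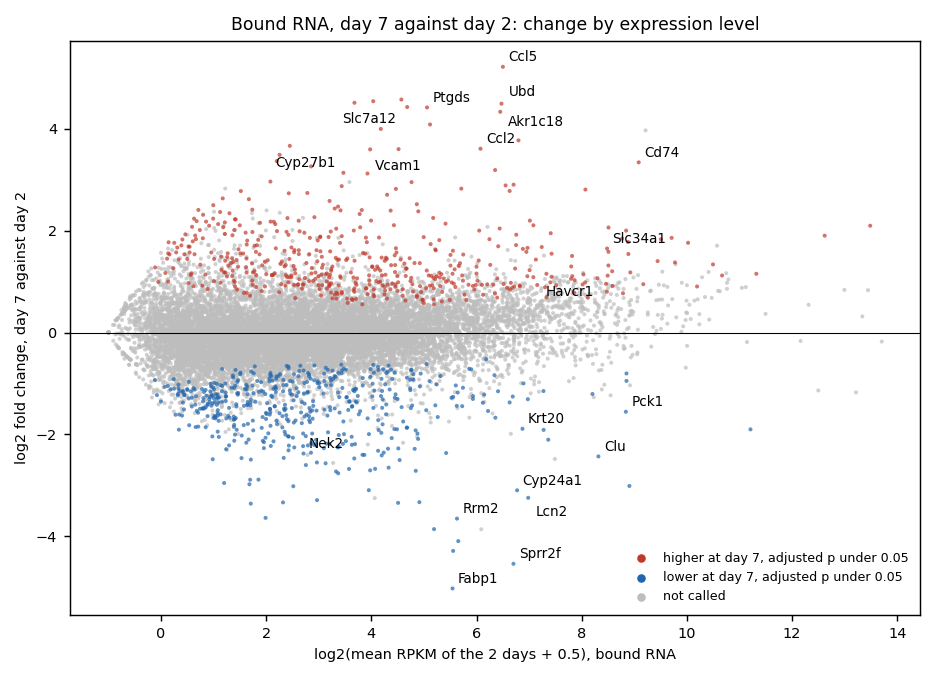
Log2 fold change of day 7 against day 2 in bound RNA (vertical) against the log2 mean level of the 2 days in RPKM plus 0.5 (horizontal), 1 point for each of 13721 genes; coloured points are the 488 genes called higher and the 485 called lower. Ccl5 and Ubd lie at the top and Fabp1 at the bottom, while Havcr1 lies among the genes not called.

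Havcr1, whose activity around the time of tamoxifen the tag follows, was measured at 50.5, 113 and 211 RPKM in the day 2 libraries. At day 7 it was at 131, 132 and 248 RPKM (log2 fold change 0.61, SE 0.61, limma adjusted p = 0.60). The sham libraries stood at 1.51, 1.49 and 5.61 RPKM. All day 2 and day 7 libraries lay far above all sham libraries, and the 2 days overlapped. In unbound RNA of the same mice Havcr1 was at 84.5, 151 and 143 RPKM at day 2 and 38.1, 54.9 and 125 at day 7. In 2 other markers of injury, Lcn2 and Krt20, the 2 days did not overlap. Lcn2, the secreted iron-carrier protein NGAL, was at 112, 200.3 and 375 RPKM at day 2 and 35.8, 12.2 and 20.96 at day 7 (log2 fold change -3.25, SE 0.65, adjusted p = 0.0045). Its day 7 level overlapped that of the sham libraries at 13.4, 9.36 and 33.6. Krt20, a keratin of stressed tubules, was at 173, 123 and 246 RPKM at day 2 and 24.9, 45.3 and 88.6 at day 7, still above every sham library (log2 fold change -1.89, SE 0.52, adjusted p = 0.031). The call for Krt20 was kept in 2 of the 6 fits that leave out a library, with an adjusted p of up to 0.16 (without the day 7 library 1).

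The genes that make up cell division fell together. All 35 tested genes of the G2 and M phase list fell and none rose, with a median log2 fold change of -2.004 against -0.04 over all genes. Of the 34 tested genes of the G1 and S phase list, 23 fell and none rose, with a median of -1.49. Nek2, a kinase that separates centrosomes, was at 13.9, 10.5 and 7.04 RPKM at day 2 and 1.77, 0.953 and 2.09 at day 7 (log2 fold change -2.38, SE 0.30, adjusted p = 9.4e-05). Its sham libraries stood at 1.03, 0.982 and 1.09, inside the day 7 range, and no day 7 library reached the lowest of day 2. Mki67, the Ki-67 antigen of cycling cells, was at 8.74, 13.6 and 7.43 RPKM at day 2 and 2.17, 2.51 and 1.58 at day 7 (log2 fold change -1.98, SE 0.39, adjusted p = 0.0037), and the day 7 level remained above the sham libraries at 0.294, 0.346 and 0.712. Rrm2, the ribonucleotide reductase subunit that supplies nucleotides for DNA synthesis, had the largest fall of these lists. It was at 129, 90.6 and 54.3 RPKM at day 2 and 7.62, 4.05 and 8.27 at day 7 (log2 fold change -3.65, SE 0.55, adjusted p = 0.00048).

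The fall covered each stage of the cycle. At the entry to S phase, the cyclin Ccne1 was at 5.42, 5.79 and 5.95 RPKM at day 2 and 1.04, 0.733 and 1.03 at day 7 (log2 fold change -2.13, SE 0.31, adjusted p = 0.00039). Falls were also called for the thymidine kinase Tk1 (log2 fold change -2.40), cyclin Ccna2 (-2.57) and Uhrf1, which keeps DNA methylation on new strands (-2.05). The helicase subunit Mcm2 (-1.72) and the polymerase clamp Pcna (-1.60, kept in 2 of the 6 fits that leave out a library) were called lower, and the helicase subunit Mcm5 missed the threshold at -1.63 (adjusted p = 0.051). In mitosis, the spindle motor Kif11 was at 2.65, 5.52 and 3.204 RPKM at day 2 and 0.235, 0.592 and 0.556 at day 7 (log2 fold change -2.12, SE 0.32, adjusted p = 0.00048). Ect2, an exchange factor that cytokinesis needs, was at 6.83, 6.37 and 4.56 RPKM at day 2 and 1.095, 0.914 and 1.04 at day 7 (log2 fold change -2.06, SE 0.33, adjusted p = 0.00087). Cyclin-dependent kinase 1, Cdk1, changed by -2.65, the mitotic kinase Plk1 by -2.68 and the anaphase activator Cdc20 by -2.72 on the log2 scale. Summed over the G2 and M list, the day 2 libraries held 345 to 515 RPKM, the day 7 libraries 72.1 to 86.8 and the sham libraries 22.8 to 45.3. In these bulk libraries fewer cells of a type and less RNA per cell cannot be told apart.

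The regulators of these genes were part of the fall. Foxm1, the transcription factor that drives the mitotic programme, was at 6.63, 8.09 and 5.34 RPKM at day 2 and 0.945, 1.33 and 1.096 at day 7 (log2 fold change -2.14, SE 0.37, adjusted p = 0.0017). Of 16 tested cell-cycle transcription factors and inhibitors, 6 fell and none rose, among them E2f1 (-2.24) and E2f8 (-1.86). The pocket protein Rbl1 (-1.22) and Lin54 (-1.05) and Lin9 (-1.28) of the MuvB complex were also called lower, calls kept in 1, 2 and 1 of the 6 fits that leave out a library. Cdkn1a, the inhibitor p21, was at 24.6, 75.6 and 129.5 RPKM at day 2 and 52.97, 73.6 and 99.9 at day 7 (log2 fold change 0.23, adjusted p = 0.84). The day 7 range lay inside that of day 2, and both days lay above the sham libraries at 6.92, 5.15 and 2.900. Of 21 tested p53 targets, only the kinase Plk3 was called (-2.23), beside 7.09% over all tested genes, and the list's median was 0.01. These counts moved with single libraries. Without the day 2 library 2, 22 of the 35 mitotic genes, 10 of the 34 G1 and S genes and 3 of the 16 regulators were called. Of the G1 and S genes, 14, 14 and 11 were called without the day 2 library 1, the day 7 library 1 and the day 7 library 2. Without the day 7 libraries 1, 2 and 3, 3, 3 and 2 of the regulators were.

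Promoters of the mitotic genes are shown because the listed genes moved together. Of the 35 G2 and M genes, 30 matched a promoter of the RefSeq table (build GRCm38.p6). The whole promoter entry was searched on both strands, from 250 bases before the start site to a short stretch after it. The match counts here and below, and the shares of all genes, thus include some bases after the start. The cell cycle homology region TTTGAA was found in 23 of the 30 (76.7%), against 20.2% of all genes in that table. The box CCAAT was found in 25 of the 30 (83.3%), against 41.1% of all genes. For the G1 and S list the E2F motif TTTNGCGC was found in 9 of 25 promoters (36%), against 1.57% of all genes. It stood in 5 of the 17 promoters of called members. The promoters of the 3 mitotic members with the smallest p and a match, then that of Uhrf1 with its E2F match, read 5′ to 3′ towards the gene with matches in capitals. Capitals mark the CCAAT box and the homology region in the mitotic genes and only the E2F match in Uhrf1, whose CCAAT runs are left in lower case. Only the 250 bases before the start are printed. Within them, only the CCAAT box is matched in Nek2, and in Kif11 both motifs are matched on the opposite strand. No 2 of the marked matches share a letter. They lie at chr1:191821223-191821472 (plus strand), chr19:37376132-37376381 (plus), chr3:27153879-27154128 (minus) and chr17:56304063-56304312 (plus).
Nek2: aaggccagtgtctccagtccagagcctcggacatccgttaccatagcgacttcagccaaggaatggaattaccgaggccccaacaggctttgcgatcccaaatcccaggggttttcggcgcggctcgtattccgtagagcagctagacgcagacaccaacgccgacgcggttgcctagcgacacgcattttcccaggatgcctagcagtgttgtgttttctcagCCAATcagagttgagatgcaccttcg
Kif11: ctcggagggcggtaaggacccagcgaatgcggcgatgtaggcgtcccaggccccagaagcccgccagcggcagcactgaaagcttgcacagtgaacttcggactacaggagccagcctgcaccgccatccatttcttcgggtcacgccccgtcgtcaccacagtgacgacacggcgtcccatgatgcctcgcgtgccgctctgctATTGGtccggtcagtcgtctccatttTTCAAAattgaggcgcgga
Ect2: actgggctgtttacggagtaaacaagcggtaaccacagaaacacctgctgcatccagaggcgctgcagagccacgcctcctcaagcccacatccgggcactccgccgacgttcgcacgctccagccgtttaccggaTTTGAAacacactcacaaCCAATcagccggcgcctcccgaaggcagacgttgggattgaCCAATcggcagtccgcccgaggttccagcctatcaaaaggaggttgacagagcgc
Uhrf1: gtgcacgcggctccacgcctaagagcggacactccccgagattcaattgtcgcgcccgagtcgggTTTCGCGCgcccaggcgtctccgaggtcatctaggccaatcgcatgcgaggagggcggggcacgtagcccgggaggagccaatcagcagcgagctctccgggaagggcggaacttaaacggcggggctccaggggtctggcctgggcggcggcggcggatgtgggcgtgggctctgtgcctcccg
A match is a run of letters and says nothing here of whether a factor was bound.

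**Figure D2:**
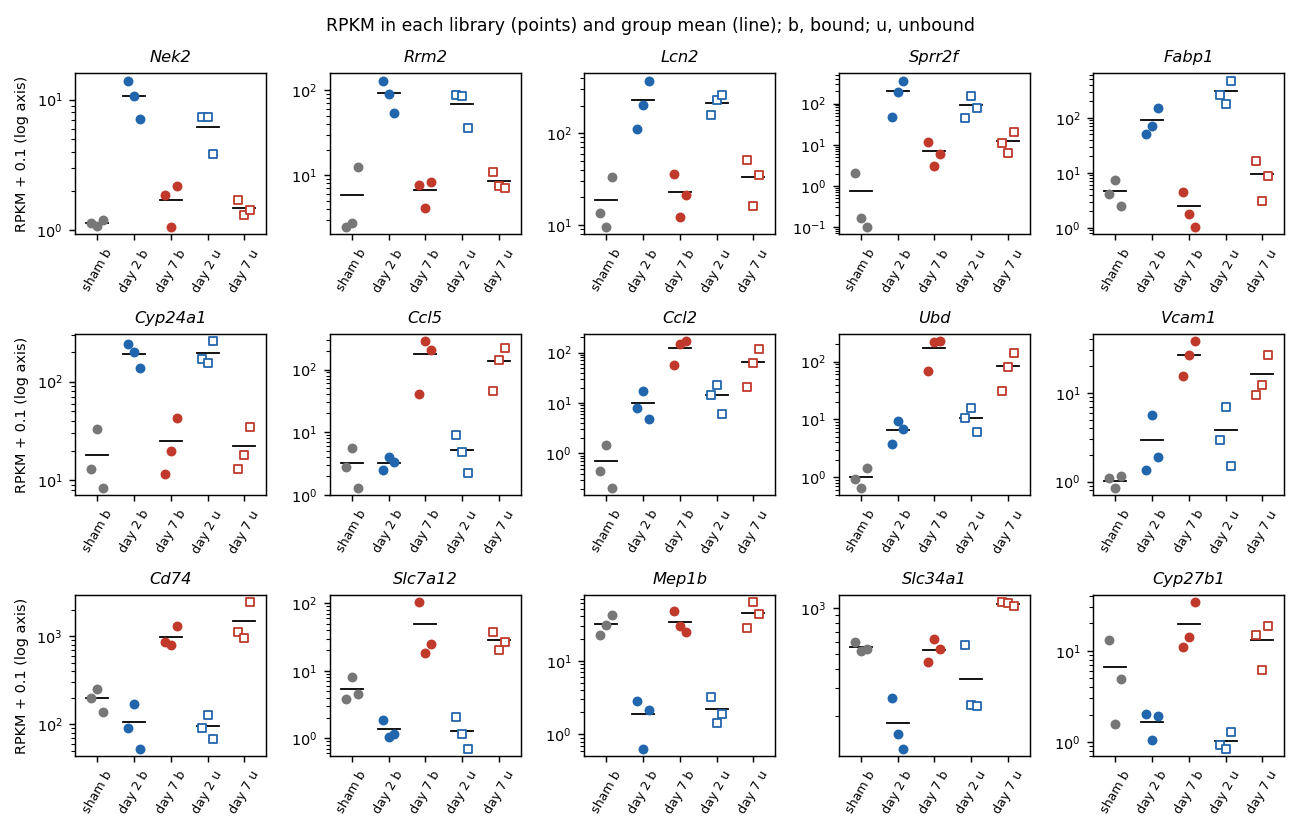
Levels of 15 genes as RPKM plus 0.1 (log axis), with 1 point a library and a line at the group mean, for sham, day 2 and day 7 bound RNA (filled circles) and day 2 and day 7 unbound RNA (open squares). Nek2, Rrm2, Lcn2, Sprr2f, Fabp1 and Cyp24a1 are lower at day 7 in bound RNA, and the other 9 genes are higher, with no overlap between the days.

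Many keratin and cornified envelope genes fell as well. The cornified envelope is part of the tough outer layer of skin, and the list also holds keratins such as Krt19. Of 15 tested members 8 fell and none rose, with a median log2 fold change of -1.27. Sprr2f, a small proline-rich envelope precursor, was at 46.7, 194 and 360.4 RPKM at day 2 and 11.5, 2.96 and 5.83 at day 7 (log2 fold change -4.54, SE 0.95, adjusted p = 0.0058), with the sham libraries at 1.93, 0.0707 and 0. Sprr2g was at 34.4, 71.3 and 181 RPKM at day 2 and 5.41, 2.61 and 4.43 at day 7 (log2 fold change -4.10, SE 0.71, adjusted p = 0.0016). The Sprr2 genes are near copies of each other, so reads may have been split among them. Sprr1a (-1.91) and Krt19 (-2.37) also fell, with calls kept in 3 and 2 of those 6 fits, and Krt19 was at 85.1, 59.7 and 67.3 RPKM at day 2 and 21.6, 9.61 and 10.9 at day 7. Of the 15 members, 2 to 6 were called in each of the 6 fits that leave out a library, fewest without the day 7 library 2, and 2 without a filter on low values. S100a7a, a calcium-binding protein of inflamed skin, was at 6.67, 2.22 and 11.9 RPKM at day 2 and was listed at 0 in each day 7 library and each sham library (adjusted p = 0.00015).

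Of the 34 tested tubule injury markers, 11 fell and 3 rose, with a median of -0.63, so the list did not move as one. The fall of Clu, the secreted chaperone clusterin, was among the clearest: it was at 419, 733 and 461 RPKM at day 2 and 133, 75.8 and 88.1 at day 7 (log2 fold change -2.43, SE 0.39, adjusted p = 0.00084), and its sham libraries at 107, 47.9 and 55.6 overlapped the day 7 libraries. Hbegf, a ligand of the EGF receptor, was at 18.7, 27.1 and 29.1 RPKM at day 2 and 10.9, 12.3 and 9.42 at day 7 (log2 fold change -1.15, SE 0.23, adjusted p = 0.0041), where the sham libraries stood too at 9.27, 10.4 and 10.5. Spp1, osteopontin, was the most abundant of the list at 5958, 11223 and 6659 RPKM at day 2 and 3538, 2390.2 and 4947 at day 7, and missed the threshold (adjusted p = 0.13). The 3 members that rose were Vcam1, an adhesion molecule, the complement factor C3 (1.62) and Cdh6, a cadherin of the developing nephron (1.48). Sox9, a regulator of tubule regeneration, was at 5.83, 16.98 and 7.92 RPKM at day 2 and 5.63, 5.69 and 9.35 at day 7, with overlap (log2 fold change -0.44, adjusted p = 0.65). Without the day 7 library 2, 6 of the members fell, and without the day 2 library 3, 7.

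NRF2 is the factor that turns on detoxifying and antioxidant genes under oxidative stress. Of 24 tested targets 10 fell and none rose, with a median of -0.71. Gsta1, a glutathione transferase, was at 38.3, 31.8 and 93.6 RPKM at day 2 and 2.76, 6.96 and 4.25 at day 7 (log2 fold change -3.33, SE 0.45, adjusted p = 0.00017), though its sequence is close to that of Gsta2 (-1.15, kept in 1 of the 6 fits that leave out a library) and reads may be shared. Txnrd1, thioredoxin reductase, was at 119, 153 and 156 RPKM at day 2 and 57.98, 51.3 and 53.9 at day 7 (log2 fold change -1.37, SE 0.22, adjusted p = 0.00072). The day 7 libraries of Txnrd1 lay inside the sham range of 59.8, 46.96 and 29.7. Srxn1, sulfiredoxin, was at 74.7, 105 and 201 RPKM at day 2 and 35.7, 35.6 and 37.3 at day 7 (log2 fold change -1.67, SE 0.27, adjusted p = 0.0011). Falls were also called for the quinone reductase Nqo1 (-2.10), glutathione reductase Gsr (-0.998), heme oxygenase Hmox1 (-1.18) and ferritin light chain Ftl1 (-0.95), the last 2 kept in 2 of those 6 fits each. Without the day 7 libraries 1, 2 and 3 the counts were 6, 4 and 6, and 2 were called in a fit of the 6 libraries alone.

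Some genes of the mature proximal tubule rose, where 3.56% of all tested genes were called higher and 3.53% lower. Of 37 tested transporters 8 rose and 1 fell, with a median log2 fold change of 0.95. Of 24 genes of endocytosis and the brush border 8 rose and 1 fell (median 0.74), and of 34 metabolic enzymes 6 rose and 1 fell (median 0.77). Slc34a1, the main phosphate transporter of the brush border, was at 259, 153 and 121 RPKM at day 2 and 443, 628 and 538 at day 7 (log2 fold change 1.65, SE 0.39, adjusted p = 0.014), and the day 7 libraries reached the sham range of 605, 528 and 538. Its call was lost without the day 2 library 2 or the day 7 library 2. Lrp2, the endocytic receptor megalin, was at 25.6, 17.2 and 10.9 RPKM at day 2 and 25.7, 26.7 and 16.1 at day 7, all below the sham libraries at 40.3, 62.3 and 48.8 and overlapping each other (log2 fold change 0.39, adjusted p = 0.53). Slc5a2, the glucose transporter SGLT2, was at 15.2, 12.1 and 7.53 RPKM at day 2 and 22.7, 25.4 and 22.5 at day 7, without overlap, and missed the threshold (log2 fold change 1.04, SE 0.40, adjusted p = 0.12).

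Several of the largest rises were in genes of the S3 segment, the straight end of the proximal tubule. Of 13 tested S3 markers 7 rose and none fell (median 1.74), against 1 of 10 for S1 (median 0.52) and 2 of 9 for S2 (median 0.57). Over all tested genes 3.56% rose, and whether the segments differ was not tested. Slc7a12, an amino acid transporter, was at 1.77, 0.943 and 1.05 RPKM at day 2 and 103, 18.5 and 25.1 at day 7 (log2 fold change 4.43, SE 0.56, adjusted p = 0.00011), so that the day 7 libraries exceeded the sham libraries at 3.65, 7.89 and 4.45. Mep1b, the beta subunit of the brush border protease meprin, was at 2.75, 0.539 and 2.02 RPKM at day 2 and 46.9, 29.3 and 24.2 at day 7 (log2 fold change 4.001, SE 0.48, adjusted p = 6.2e-05), next to 22.4, 30.7 and 41.9 in sham. Its partner Mep1a was at 50.4, 38.5 and 56.4 RPKM at day 2 and 241, 124 and 133 at day 7 (log2 fold change 1.72, SE 0.36, adjusted p = 0.0065). Cyp7b1, an oxysterol hydroxylase, was at 1.92, 2.03 and 4.73 RPKM at day 2 and 68.9, 27.1 and 29.7 at day 7 (log2 fold change 3.60, SE 0.54, adjusted p = 0.00040). Slc7a13, another amino acid transporter, was at 14.5, 5.56 and 16.1 RPKM at day 2 and 159, 62.9 and 52.98 at day 7 (log2 fold change 2.83, SE 0.62, adjusted p = 0.0078). In all of these genes the day 7 library 1 held the highest value of the 6.

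Among genes not on the S3 list, the organic anion transporter Slc22a7 was at 2.92, 1.17 and 8.89 RPKM at day 2 and 73.7, 55.8 and 62.5 at day 7 (log2 fold change 4.09, SE 0.68, adjusted p = 0.0013), above its sham libraries at 14.8, 21.01 and 19.8. Slc6a13, which takes up GABA and betaine, was at 7.02, 4.82 and 11.8 RPKM at day 2 and 43.4, 29.6 and 29.6 at day 7 (log2 fold change 2.11, SE 0.41, adjusted p = 0.0035). Among enzymes, Aadat, an aminotransferase of the kynurenine pathway, was at 47.2, 15.4 and 13.5 RPKM at day 2 and 296, 89.5 and 129 at day 7 (log2 fold change 2.78, SE 0.43, adjusted p = 0.00065). Both transporters and the enzyme stood at each day 7 library above every day 2 library. The dipeptidase Cndp2 (1.86), the hydroxyacid oxidase Hao2 (1.95), Pipox (0.98) and the D-amino acid oxidase Dao (0.94) also rose, with calls kept in 5, 1, 2 and 1 of the 6 fits that leave out a library. Of the brush border genes, Amn, the membrane anchor of cubilin, was at 33.8, 26.8 and 23.6 RPKM at day 2 and 74.6, 68.6 and 57.2 at day 7 (log2 fold change 1.24, SE 0.30, adjusted p = 0.014). Its call was kept in 3 of those fits. The exceptions were the efflux pump Abcc2 (-1.004, kept in 2) and the endosomal chloride transporter Clcn5, which was at 9.92, 13.6 and 12.2 RPKM at day 2 and 6.21, 5.82 and 5.67 at day 7 (log2 fold change -0.95, SE 0.22, adjusted p = 0.011). Here too the counts moved with single libraries. Without the day 2 library 2, 4 transporters, 3 endocytic and brush border genes and 3 enzymes rose, and without the day 7 library 1, 5, 2 and 4. Without the day 7 library 2, 3 brush border genes and 2 enzymes rose, and without the day 2 library 3 or the day 7 library 3, 3 enzymes. Leaving out the day 2 library 1 gave 5 brush border genes and 15 enzymes. The S3 count was 5 to 7 throughout.

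The enzymes of vitamin D moved in opposite directions. Cyp27b1, which makes the active hormone, was at 1.92, 0.957 and 1.84 RPKM at day 2 and 10.8, 13.96 and 33.9 at day 7 (log2 fold change 3.14, SE 0.67, adjusted p = 0.0066). Cyp24a1, which breaks the hormone down, was at 242, 199 and 136 RPKM at day 2 and 11.4, 19.9 and 43.1 at day 7 (log2 fold change -3.10, SE 0.52, adjusted p = 0.0012). The days did not overlap for either gene, and the sham libraries stood at 13.1, 1.47 and 4.87 RPKM for Cyp27b1 and 12.9, 32.96 and 8.23 for Cyp24a1. Both calls were kept in each of the 6 fits that leave out a library.

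Regulators of proximal identity gave few calls in number, beside 7.09% called over all tested genes, 3.56% higher and 3.53% lower. Of 19 tested members 1 rose, Nr1h3, the oxysterol receptor LXR alpha (log2 fold change 1.08, SE 0.28, adjusted p = 0.023), and 1 fell, Tfcp2l1 (-0.84), with a median of 0.05. Each of these calls was lost in 4 of the 6 fits that leave out a library, both of them without any 1 of the day 7 libraries. Hnf4a, a master factor of the mature tubule, was at 167, 87.7 and 81.1 RPKM at day 2 and 124, 119 and 108 at day 7 (log2 fold change 0.14, adjusted p = 0.83). Both days overlapped the sham libraries at 171, 229 and 94.9. In the promoters of 28 transport genes the HNF1 motif GTTAATNAT had no match, against 0.940% of all genes, and the HNF4 motif CAAAGTCC was matched in 3 of 28 promoters of metabolic enzymes (10.7%), against 1.63% of all genes, and in 2 of the 5 promoters of called enzymes.

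Fatty acid oxidation, the main fuel pathway of these cells, gave few calls in number, beside 7.09% called over all tested genes. Of 35 tested genes 1 rose and 2 fell, with a median of -0.15. Slc25a20, the mitochondrial carnitine carrier, fell (-0.72), while the acyl-CoA synthetase Acsm3 rose (2.41), calls kept in 3 and 4 of the 6 fits that leave out a library. Hadha, of the mitochondrial trifunctional enzyme, was at 89.7, 55.8 and 42.2 RPKM at day 2 and 34.8, 37.2 and 33.6 at day 7 and just missed the threshold (adjusted p = 0.057). Its sham libraries were at 133, 105 and 110.0, above every injured library. Of the members, 5 rose and 1 fell without the day 2 library 1. None rose without the day 2 library 2 or the day 7 library 1. Pck1, the gluconeogenic carboxykinase, was at 1057, 304 and 747 RPKM at day 2 and 222, 183 and 232 at day 7 (log2 fold change -1.55, SE 0.44, adjusted p = 0.037). That call was kept in 1 of the 6 fits that leave out a library, with an adjusted p of up to 0.14.

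Fabp1, a fatty acid binding protein, had the largest fall of all named genes. It was at 50.03, 70.7 and 149 RPKM at day 2 and 4.39, 1.72 and 0.931 at day 7 (log2 fold change -5.03, SE 0.59, adjusted p = 5.5e-05), with the sham libraries at 4.097, 7.17 and 2.35. Cyp2a5, a cytochrome with a near copy in Cyp2a4, was at 32.4, 62.1 and 110.2 RPKM at day 2 and 5.15, 3.91 and 2.48 at day 7 (log2 fold change -3.86, SE 0.48, adjusted p = 9.4e-05). Lrg1, a secreted acute phase protein, was at 20.8, 22.2 and 81.4 RPKM at day 2 and 4.71, 1.82 and 2.63 at day 7 (log2 fold change -3.34, SE 0.48, adjusted p = 0.00035). Each of these had raised levels at day 2 and, at day 7, levels near or below the sham libraries. Hesx1, a homeobox repressor, and Chil3, a chitinase-like protein of activated macrophages, had log2 fold changes of -3.29 and -3.36. Arg1, the arginase of the urea cycle and of some macrophages, had one of -3.34 (adjusted p = 0.046) and lost the call in 5 of the 6 fits that leave out a library. Among the largest rises, Inmt, a methyltransferase of indole amines, was at 21.3, 14.3 and 9.83 RPKM at day 2 and 210.0, 241 and 167 at day 7 (log2 fold change 3.78, SE 0.40, adjusted p = 2.0e-05). The steroid reductase Akr1c18 was at 7.83, 4.95 and 9.25 RPKM at day 2 and 260.3, 99.7 and 139.8 at day 7 (log2 fold change 4.34, SE 0.57, adjusted p = 0.00015). For both, the day 7 libraries lay within the sham range or next to it. Ptgds, prostaglandin D synthase, was at 2.24, 2.99 and 2.04 RPKM at day 2 and 44.2, 68.3 and 77.1 at day 7 (log2 fold change 4.42, SE 0.39, adjusted p = 2.5e-06), and Stra6, a membrane receptor for retinol-binding protein, at 0.454, 0.272 and 0.0684 RPKM at day 2 and 5.06, 11.3 and 12.6 at day 7 (log2 fold change 3.67, SE 0.49, adjusted p = 0.00017). These stood above all sham libraries. Mir6358, annotated as a microRNA gene, rose by 4.55.

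**Figure D3:**
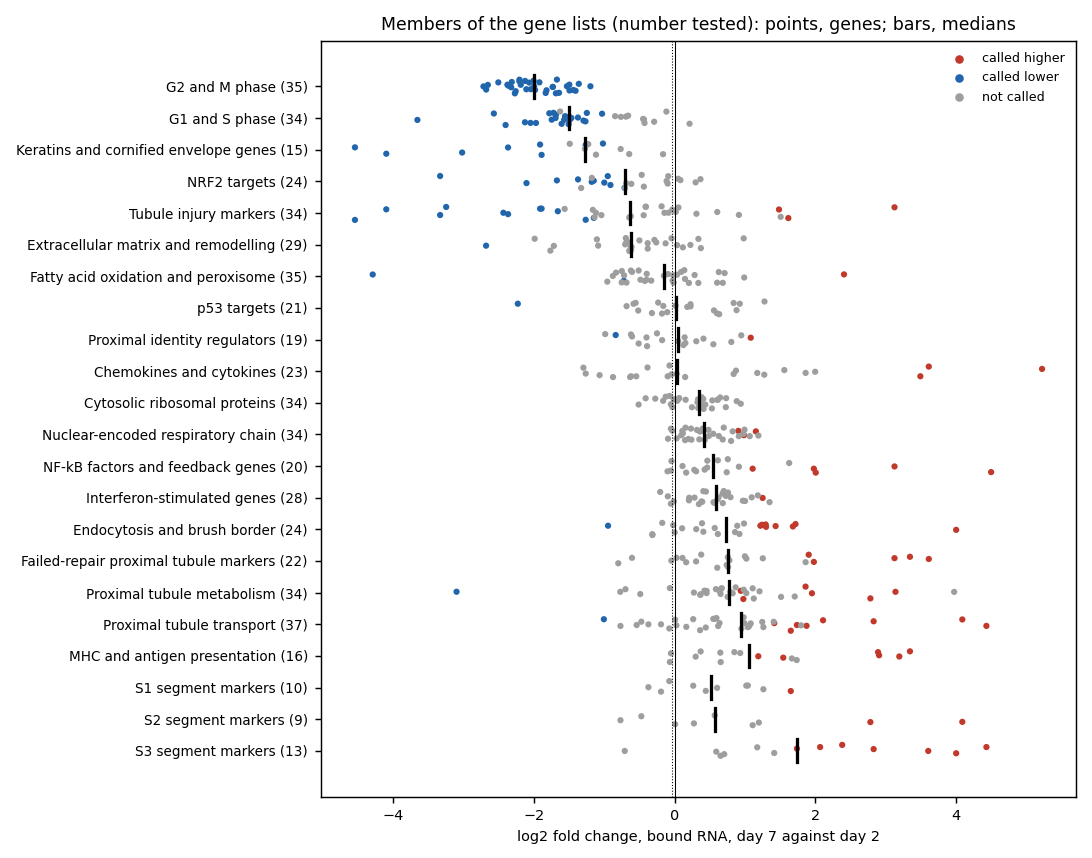
Log2 fold change of day 7 against day 2 in bound RNA for the tested members of 22 gene lists (points, 1 a gene, shifted at random up or down within a row) and the median of each list (black bar); the dotted line is the median of all tested genes. The 35 G2 and M genes all lie to the left, called lower, and 7 of the 13 S3 markers lie to the right, called higher.

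A few inflammatory genes rose by large amounts. Of 23 tested chemokines and cytokines 3 rose and none fell, and the list's median was 0.03, so most of its members did not pass the test. Ccl5, a chemokine for T cells and monocytes, had the largest rise of all named genes. It was at 2.35, 3.85 and 3.26 RPKM at day 2 and 40.5, 281 and 209 at day 7 (log2 fold change 5.22, SE 0.75, adjusted p = 0.00036), while its sham libraries at 2.63, 5.38 and 1.18 overlapped those of day 2. Ccl2, the chief attractant of monocytes, was at 7.77, 17.5 and 4.71 RPKM at day 2 and 56.4, 149 and 166 at day 7 (log2 fold change 3.61, SE 0.70, adjusted p = 0.0036). Cxcl5, a neutrophil chemokine, was at 0.0524, 0.390 and 0.275 RPKM at day 2 and 6.202, 5.32 and 13.4 at day 7 (log2 fold change 3.49, SE 0.48, adjusted p = 0.00025). Each of these 3 genes was low in every day 2 library, and the 3 calls held in each of the 6 fits that leave out a library. Cxcl10, which interferon induces, was at 4.25, 7.13 and 1.46 RPKM at day 2 and 8.71, 17.9 and 19.7 at day 7, without overlap, and narrowly missed the threshold (adjusted p = 0.053).

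NF-kB is the transcription factor family that turns on many of these genes, and it limits itself through induced inhibitors. Of 20 tested NF-kB factors and feedback genes 5 rose and none fell, with a median of 0.54. Ubd, a ubiquitin-like protein also known as FAT10, was at 3.73, 9.38 and 6.61 RPKM at day 2 and 69.4, 219 and 223 at day 7 (log2 fold change 4.50, SE 0.55, adjusted p = 7.5e-05), against 0.842, 0.555 and 1.35 in sham. Vcam1, an adhesion molecule for leukocytes, was at 1.25, 5.56 and 1.81 RPKM at day 2 and 15.2, 26.6 and 37.8 at day 7 (log2 fold change 3.12, SE 0.55, adjusted p = 0.0019), and its day 2 library 2 stood above the others of that day. Nfkbie, an inhibitor of the family, was at 3.04, 6.05 and 4.66 RPKM at day 2 and 13.8, 23.6 and 21.9 at day 7 (log2 fold change 2.01, SE 0.41, adjusted p = 0.0049). The adaptor Traf1 (1.98) and the inhibitor Tnip1 (1.11) also rose, each kept in 3 of the 6 fits that leave out a library. Without the day 2 library 1, the day 7 library 2 or the day 7 library 3, 3 of the members were called.

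Of the 20 genes, 15 matched a RefSeq promoter, and the motif GGNNTTTCC was found on either strand in 8 of the 15 (53.3%), against 6.62% of all genes. Of the 4 called members with a promoter only Ubd held a match, so the promoter of Ubd (chr17:37193642-37193891, plus strand, GRCm38.p6) is shown with the match in capitals.
Ubd: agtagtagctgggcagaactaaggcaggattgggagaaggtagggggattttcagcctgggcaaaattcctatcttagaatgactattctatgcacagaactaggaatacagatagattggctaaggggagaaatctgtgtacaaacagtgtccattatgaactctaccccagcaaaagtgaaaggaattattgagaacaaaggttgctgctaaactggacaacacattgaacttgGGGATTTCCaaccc
For chemokines and cytokines the same motif was found in 7 of 15 promoters (46.7%), and none of the 3 called members was among the genes with a promoter in the table. The interferon response motif TTTCNNTTT was found in 13 of 21 promoters of interferon-stimulated genes (61.9%), against 12.1% of all genes.

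Markers of failed repair partly overlap the inflammatory lists. Of 22 tested members 5 rose and none fell, with a median of 0.76: Ccl2, Vcam1, Cd74, Traf1 and Kcnip4. Kcnip4, a potassium channel partner, was at 0.0120, 0.114 and 0.142 RPKM at day 2 and 0.452, 2.59 and 3.11 at day 7 (log2 fold change 1.91, SE 0.41, adjusted p = 0.0067), with the day 7 library 1 well below the other 2. This list was written from markers described in injured kidneys. It shares Ccl2, Vcam1 and Traf1 with the chemokine and NF-kB lists, and Cd74 with those of antigen presentation and macrophages. Vcam1 is also a tubule injury marker, so the failed repair count is not separate from those of the other lists. Without the day 7 library 3 the count was 3.

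Several genes of antigen presentation rose. Of 16 tested members 6 rose and none fell, with a median of 1.06. Cd74, the invariant chain of class II molecules, was at 91.4, 170.2 and 52.6 RPKM at day 2 and 865, 782 and 1289.9 at day 7 (log2 fold change 3.34, SE 0.55, adjusted p = 0.0011), above the sham libraries at 199, 253 and 138. The class II chains H2-Aa and H2-Ab1 were at 10.97, 27.7 and 11.8 and 17.4, 38.7 and 14.3 RPKM at day 2. At day 7 they were at 146, 122 and 169.6 for H2-Aa (log2 fold change 3.19, SE 0.65, adjusted p = 0.0052) and 163, 132 and 195 for H2-Ab1 (log2 fold change 2.89, SE 0.57, adjusted p = 0.0042). H2-Eb1 also rose (2.91). Of class I, B2m, the common light chain, was at 192, 283 and 237 RPKM at day 2 and 516, 643 and 966 at day 7 (log2 fold change 1.54, SE 0.32, adjusted p = 0.0054), and H2-T23 rose (1.19). Reads may be shared among the H2 genes, which are alike in sequence. The count was 6 or 7 in each of the 6 fits that leave out a library.

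Class II genes are also markers of macrophages and dendritic cells and are part of that list. Of its 21 tested members 4 rose and none fell, 3 of them Cd74, H2-Aa and H2-Ab1 and the fourth Csf1r, the macrophage growth factor receptor (log2 fold change 1.60, SE 0.47, adjusted p = 0.043). The call for Csf1r was kept in 1 of the 6 fits that leave out a library. The summed level of the list was 226 to 647 RPKM in the day 2 libraries, 1304 to 2064 at day 7 and 236 to 439 in sham, and none of its members was at 0 in all libraries of a group. Most of that sum was the 3 class II genes, at 78.7 to 237 RPKM at day 2 and 1036 to 1654 at day 7. The other 18 members summed to 147 to 411 RPKM at day 2 and 268 to 410.3 at day 7, with overlap, and to 53.5 to 98.1 in sham. They had a median log2 fold change of 0.83, with 2 at an unadjusted p under 0.05. Cd68, a lysosomal marker of macrophages, was at 6.55, 11.6 and 14.5 RPKM at day 2 and 7.77, 7.73 and 8.48 at day 7, with overlap (log2 fold change -0.35). Adgre1, the antigen F4/80, was at 0.748, 1.54 and 0.404 RPKM at day 2 and 4.88, 1.65 and 3.25 at day 7, without overlap, and missed the threshold (adjusted p = 0.16). In unbound RNA the list sum was 289 to 630 RPKM at day 2 and 1963 to 4598 at day 7, and that of the 18 others 186 to 439.8 and 596 to 1325. Whether macrophage RNA had a part in the rises of class II genes and chemokines in bound RNA was not tested.

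Few interferon and complement genes passed the test, and 3.56% of all tested genes rose. Of 28 tested interferon-stimulated genes 1 rose, the guanylate-binding protein Gbp3 (log2 fold change 1.25, SE 0.36, adjusted p = 0.039), with a median of 0.59. Of 18 complement genes 2 rose, C3 and C2. C3, the central component, was at 15.4, 18.3 and 19.7 RPKM at day 2 and 44.96, 59.4 and 63.6 at day 7 (log2 fold change 1.62, SE 0.44, adjusted p = 0.027), and C2 at 1.602, 1.74 and 1.32 RPKM at day 2 and 3.28, 5.15 and 4.47 at day 7 (log2 fold change 1.21, SE 0.27, adjusted p = 0.0086). For both the day 7 libraries lay above all sham libraries. The call for Gbp3 was lost without the day 2 library 2 or 3 or the day 7 library 1 or 3. Both complement calls were lost without the day 7 library 2, and that for C3 also without the day 2 library 1 or 2 or the day 7 library 3.

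Calls among growth signals were small in number in short lists, where 7.09% of all tested genes were called, 3.56% higher and 3.53% lower. Of 23 TGF-beta and BMP genes 1 rose and 1 fell. Tgfb2, a TGF-beta ligand, was at 0.220, 0.273 and 0.362 RPKM at day 2 and 5.25, 2.34 and 3.35 at day 7 (log2 fold change 2.34, SE 0.43, adjusted p = 0.0022), and its sham libraries were at 0.166, 1.404 and 0.489. Id1, a target of BMP signalling, fell (log2 fold change -1.52, SE 0.44, adjusted p = 0.040), a call lost without the day 2 library 2 or 3 or the day 7 library 2 or 3. Of 13 genes of the EGF receptor system 1 rose and 2 fell. Egf, made mainly by the distal nephron, was at 4.07, 3.72 and 4.204 RPKM at day 2 and 13.3, 18.3 and 9.13 at day 7 (log2 fold change 1.60, SE 0.33, adjusted p = 0.0059), below 33.01, 39.6 and 80.5 in sham. Hbegf fell as given above, and so did Spry4, a feedback inhibitor of receptor tyrosine kinases, at 3.68, 4.13 and 2.62 RPKM at day 2 and 0.868, 0.917 and 1.02 at day 7 (log2 fold change -1.45, SE 0.30, adjusted p = 0.0050). Of 20 immediate early genes 2 fell, the phosphatases Dusp5 (-1.96) and Dusp6 (-1.31), and the call for Dusp6 was lost without the day 2 library 2 or the day 7 library 1 or 2. None of 16 promoters of that list held the AP-1 motif TGANTCA, against 8.97% of all genes.

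Matrix and contractile genes also gave few calls in number, beside 3.56% higher and 3.53% lower over all tested genes. Of 29 tested matrix and remodelling genes 1 fell and none rose, with a median of -0.62. Ctgf, a matricellular protein and a target of YAP, was at 9.94, 20.02 and 30.97 RPKM at day 2 and 3.46, 2.01 and 2.09 at day 7 (log2 fold change -2.68, SE 0.53, adjusted p = 0.0042). Its day 7 libraries overlapped the sham libraries at 2.498, 4.31 and 2.24. Col1a1, a chain of type I collagen, was at 110.2, 347 and 41.6 RPKM at day 2 and 61.9, 19.8 and 20.04 at day 7, with overlap and a wide spread at day 2 (log2 fold change -1.99, SE 0.82, adjusted p = 0.15). Of 23 actin, SRF and YAP targets 2 fell, Ctgf and the kinase Lats2 (-1.03), whose call was kept in 1 of the 6 fits that leave out a library. Stress programmes gave few calls. Of 24 genes of the unfolded protein and integrated stress response only Psat1 fell, a serine synthesis enzyme at 33.6, 34.7 and 51.4 RPKM at day 2 and 9.94, 10.6 and 10.7 at day 7 (log2 fold change -1.87, SE 0.29, adjusted p = 0.00071), the level of the sham libraries. Of 20 heat shock genes 1 rose, the chaperone Dnaja1 (0.76), a call kept in 2 of the 6 fits that leave out a library. The list had 3 calls without the day 2 library 3. Of 19 hypoxia targets limma called none, and 5 had an unadjusted p under 0.05. Leaving out the day 2 library 1 gave 4 called lower.

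The next lists gave few calls in number, beside 7.09% called over all tested genes, 3.56% higher and 3.53% lower. Of 23 genes of cholesterol synthesis and uptake, Cyp51 (1.87) and Mvd (0.74) rose and Hsd17b7 fell (-0.83), with calls kept in 6, 1 and 3 of the 6 fits that leave out a library. Of 24 genes of glycolysis and gluconeogenesis the isomerase Tpi1 rose (0.69) and Pck1 fell, and of 28 genes of ribosome biogenesis the histone chaperone Npm3 rose (0.79). The calls for Tpi1 and Npm3 were kept in 1 and 2 of those fits. Of 17 nephron development factors Cdh6 alone rose, at 1.19, 0.668 and 0.476 RPKM at day 2 and 2.83, 2.55 and 3.64 at day 7 (log2 fold change 1.48, SE 0.33, adjusted p = 0.0092). The 34 cytosolic ribosomal protein genes, with a median of 0.34, gave no call in limma and 4 unadjusted p under 0.05. Of them 8 were called higher without the day 2 library 3 (median 0.69), and without the day 2 library 1, 1 was called lower (median -0.12). The 7 genes of the mitochondrial genome gave no call and 1 unadjusted p under 0.05, and 1 call, lower, without the day 2 library 1.

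Subunits of the respiratory chain lay slightly higher at day 7, and over all genes the change moved with gene length. Of 34 tested nuclear-encoded members 3 rose (median 0.41), Cox4i1 (0.91), Ndufa4 (1.15) and Atp5j (0.99), beside 3.56% over all tested genes. Over all tested genes, cut into 4 equal parts by exon length, the shortest part had a median log2 fold change of 0.22 and the longest -0.21, and calls were 216 higher and 86 lower in the first and 33 higher and 145 lower in the last. In unbound RNA the same medians were 0.08 and -0.06. With the trend over gene length removed from each library, an alternative chosen after seeing the data, none of the 34 was called, nor after median-ratio or quantile scaling, nor without any 1 of 5 of the 6 libraries. The count was 11 without the day 2 library 3. What part gene length had in the rises was not tested further. With that trend removed, 1045 genes were called in all, 453 higher and 592 lower, the G2 and M genes were 35 of 35 lower and the S3 markers 7 of 13 higher, while 4 brush border genes and 3 metabolic enzymes rose.

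Markers of other kidney cells show what else the bound RNA held. Summed S1 markers stood at 366 to 813 RPKM in the day 2 bound libraries and 648 to 1246 in the unbound libraries of that day, and the ranges overlapped. At day 7 the ranges were 930 to 1224 in bound and 1796 to 1968 in unbound RNA. Summed S3 markers overlapped between the fractions, at 516 to 1849 RPKM in bound and 611 to 1486 in unbound RNA at day 2. Keratins and cornified envelope genes were higher in bound RNA, at 1372 to 2202 RPKM against 609.6 to 1033 at day 2 and 514 to 734 against 242 to 391.7 at day 7. Havcr1, as given above, was higher in each bound than in each unbound library at day 7 and overlapped at day 2. Summed S2 markers overlapped between the fractions at both days. So did S3 markers at day 7, at 1404 to 2501 RPKM in bound and 1718 to 1840 in unbound RNA. Proximal transport genes were lower in bound RNA, at 892 to 1261 RPKM against 1315 to 2478 at day 2. At day 7 they were at 1773 to 2452 against 3028 to 3391. None of these proximal lists was higher in bound RNA without overlap, and tubule injury markers overlapped at both days. Podocyte markers were higher in bound RNA, at 164 to 616 RPKM at day 2 and 95.8 to 170 at day 7, against 63.3 to 76.8 and 67.7 to 75.8 in unbound RNA. Principal cell markers were at 203 to 824 RPKM in day 2 bound RNA and 149 to 253 at day 7. The day 2 library 3 carried the top of that range: Aqp2, the water channel of collecting ducts, was at 36.8, 25.6 and 348 RPKM in the day 2 libraries and 39.8, 41.8 and 23.9 at day 7, and was not called (adjusted p = 0.43).

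Called members of these lists were few in number, beside 3.56% higher and 3.53% lower over all tested genes. Of 10 principal cell markers 1 fell, the transcription factor Gata3, at 14.7, 13.7 and 21.6 RPKM at day 2 and 8.85, 4.81 and 5.18 at day 7 (log2 fold change -1.36, SE 0.35, adjusted p = 0.022). Of 12 intercalated cell markers 1 fell, Foxi1 (log2 fold change -1.37, SE 0.35, adjusted p = 0.022), of 11 podocyte markers 1, Podxl (log2 fold change -1.21, SE 0.36, adjusted p = 0.047), and of 14 endothelial markers 1, Pecam1 (log2 fold change -1.17, SE 0.35, adjusted p = 0.047). Pecam1, the junction protein CD31, was at 4.64, 7.13 and 5.51 RPKM at day 2 and 3.24, 2.19 and 1.56 at day 7. All 4 calls were lost without the day 7 library 2, and also without the day 7 library 3, and those for Podxl and Pecam1 were kept in 1 of the 6 fits that leave out a library. Summed endothelial markers stood at 85.9 to 138 RPKM at day 2 and 50.3 to 77.5 at day 7 in bound RNA, without overlap, and at 88.3 to 116 and 100.6 to 122 in unbound RNA. Stromal markers were at 212 to 813 RPKM at day 2 and 93.2 to 218 at day 7 in bound RNA. Of 12 thick ascending limb markers 3 rose, Egf, Cldn10 (1.12) and Wfdc15b (1.10), and Cldn19 fell (-1.18), with a median of -0.31 against 0.67 in unbound RNA. The calls for Wfdc15b and Cldn19 were kept in 2 and 3 of the 6 fits that leave out a library. Umod, uromodulin, was at 524, 459 and 262 RPKM at day 2 and 341, 228 and 176 at day 7, with overlap. Neutrophil markers summed to 22.3 to 116 RPKM at day 2 and 5.91 to 11.7 at day 7, and limma called none of the 6 tested, 5 of which had an unadjusted p under 0.05. Of 13 stromal, 9 distal convoluted tubule, 6 thin limb, 9 lymphocyte and 6 erythroid markers none was called, with 5, 2, 1, 1 and 0 at an unadjusted p under 0.05. Without the day 2 library 3, 3 stromal and 1 distal convoluted tubule marker were called lower and 1 thin limb marker higher, and without the day 2 library 1, 2 neutrophil markers were called lower.

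**Figure D4:**
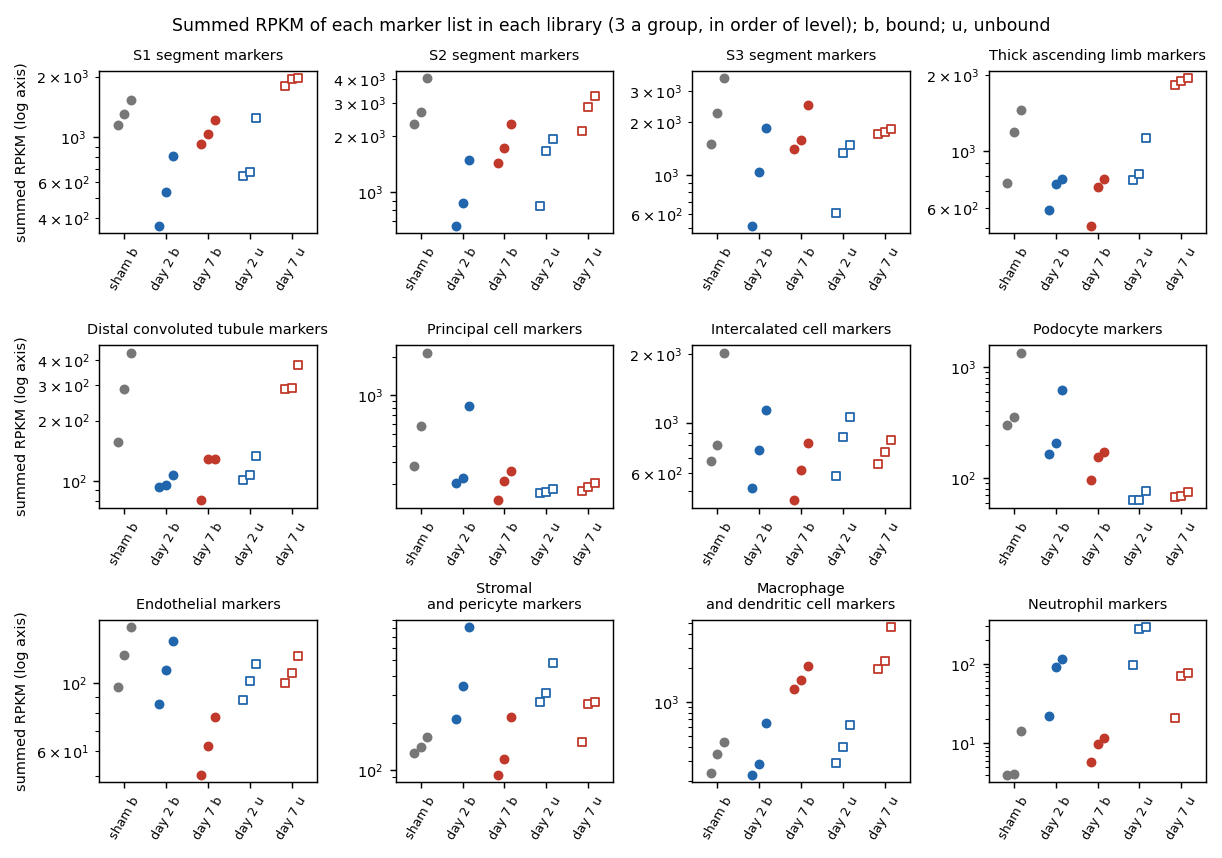
Summed RPKM of 12 marker lists on a log axis, 1 point a library in order of level within its group, for sham, day 2 and day 7 bound RNA (filled circles) and day 2 and day 7 unbound RNA (open squares). The sum of macrophage and dendritic cell markers, most of it 3 class II genes, is higher at day 7 in both fractions, and podocyte markers are higher in bound than in unbound RNA of the same day.

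The change was then set beside that in unbound RNA of the same mice. In unbound RNA 482 genes were called between the days, 3.51% of those tested, 232 higher (1.69%) and 250 lower (1.82%). Of the bound calls 322 were also called in unbound RNA in the same direction, 33.1% of the bound and 66.8% of the unbound calls, and none in the opposite direction. The difference between the fractions was tested as an interaction. No gene passed at an adjusted p under 0.05 in limma, and 451 genes, of 13721, had an unadjusted p under 0.05. With the mouse as a block the count was again 0, with 1288 at an unadjusted p under 0.05, and without a filter on low values it was 5. On simulated data this test found 12% of 2-fold and 66% of 4-fold differences, so smaller differences may be missed.

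Levels of the genes that changed most are given side by side for the 2 fractions. The G2 and M list had a median of -1.66 in unbound and -2.004 in bound RNA. Ccl5 rose by 4.51 in unbound and 5.22 in bound RNA, and Inmt by 4.49 and 3.78. Fabp1 changed by -5.12 in unbound and -5.03 in bound RNA, called in both. Ccl2 was at 14.5, 22.6 and 5.95 RPKM at day 2 and 20.3, 61.1 and 115 at day 7 in unbound RNA and was not called there (2.02, adjusted p = 0.13), yet the difference of its change between the fractions was not called either (adjusted p = 0.995). Cxcl5 changed by 1.31 in unbound RNA (adjusted p = 0.16), and the difference of its change of 2.19 had an unadjusted p of 0.0044 and an adjusted p of 0.995. Havcr1 changed by 0.61 in bound and -0.93 in unbound RNA, neither called.

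**Figure D5:**
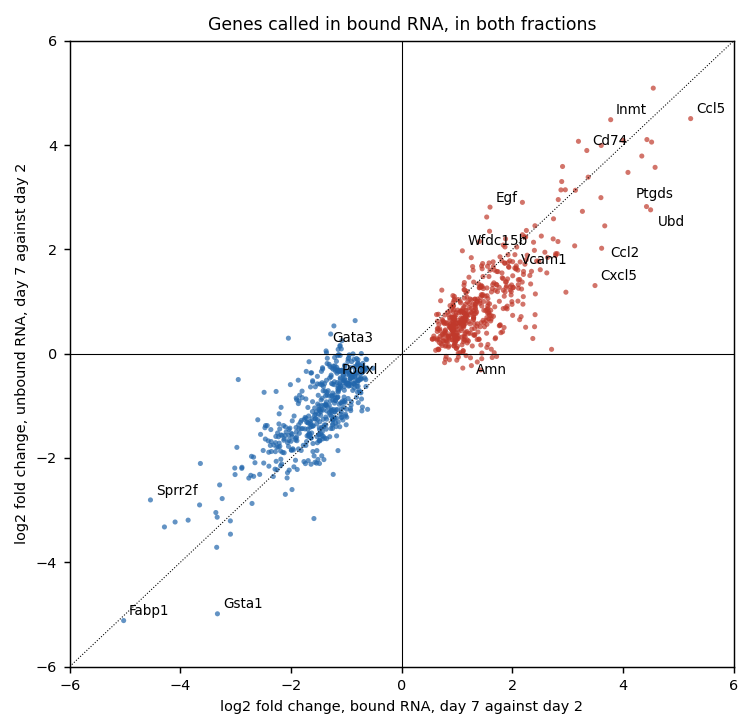
Log2 fold change of day 7 against day 2 in unbound RNA (vertical) against that in bound RNA (horizontal) for the 973 genes called in bound RNA, red where higher and blue where lower at day 7; the dotted line marks equal change. Most points lie in the lower left and upper right of the plot, and no gene was called in opposite directions.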

How the data were processed

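Bound and unbound RNA of 3 mice each in 4 groups (1 sham group and 3 times after injury) gave 24 libraries, described by the labels as biological replicates. The authors deposited RPKM per gene, reads scaled to gene length and library size, per the file headers. The submitters' processing notes name STAR 2.0.4b, featureCounts 1.4.5 of Subread, and edgeR. The build, annotation and strand setting are not given in the sources used here. Of 41831 lines 1081 were identical repeats and were dropped, leaving 40750 genes. No per-sample column was left unmapped. RPKM holds no counts, so no count test was run. Depth was inferred from low values: with gene lengths of GENCODE M21, 75.2% to 76.3% of values of up to 50 reads were whole within 0.02 in the 6 libraries, against 4% by chance.

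The test used limma 3.58.1 in R 4.3.3 on log2(RPKM + 0.5), with means for the 8 groups of 24 libraries, a trended variance prior and Benjamini-Hochberg adjustment over all tested genes. The test of bound against unbound change was the interaction in the same fit. On simulated data with these settings, changes of 2-fold were recovered at 38% in the bound comparison and those of 4-fold at 87%, and 5 unchanged genes were called. Named genes were the 12 largest rises and falls among calls with non-overlapping groups whose higher mean was 5 RPKM or more, up to 5 members of each list with the smallest p, and 20 fixed genes. The rule named 240 genes, not all of which are described, and 144 genes, with those below, are named in the text. Others named beside them (among them Mcm2, Mcm5, Pcna, Cdk1, Plk1, Cdc20, Hmox1, Ftl1, Gsta2, Spp1, Hao2, Dao, Abcc2, Lin9 and H2-Eb1) were chosen after their values were seen. The 48 gene lists and the other members were chosen with earlier results of these data known. Alternatives tried were the pseudocount, the filter, scaling, the libraries fitted, the variance prior, a block on replicate number, each library left out and, added later, removal of the length trend. Promoter sequences come from RefSeq (GRCm38.p6).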

Additional observations from a re-analysis of the deposited data

Results flagged for a closer look

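In 2 transporters of the distal nephron named by the marker lists, every day 7 bound library lay below every day 2 bound library while every day 7 unbound library lay above every day 2 unbound library. Aqp6, a water channel of intercalated cells, changed by -0.94 in bound and 0.44 in unbound RNA on the log2 scale. The difference of -1.37 had an unadjusted p of 0.0037 and an adjusted p of 0.995 in limma. Slc12a3, the salt transporter of the distal convoluted tubule, changed by -0.65 in bound and 0.75 in unbound RNA. Its difference of -1.39 had an unadjusted p of 0.017 and an adjusted p of 0.995. Neither difference passed the adjusted threshold.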

How the results depend on the processing

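The 973 bound calls (488 higher, 485 lower) became 406 (199 and 207) in a fit of the 6 libraries alone and 285 (139 and 146) in one of the 12 bound libraries. In the other settings they ranged from 733, with a filter of at least 5 RPKM, to 1113. Leaving out 1 library gave 427 to 1429 calls, 221 to 811 higher and 193 to 618 lower, the fewest without the day 7 library 2 and the most without the day 2 library 3. Without the day 2 library 1, 41.3% of the calls were higher, against 50.2% in the full fit. In unbound RNA the 482 calls became 372 with a pseudocount of 0.1 (157 lower, 57.8% higher against 48.1%) and 583 with the length trend removed, 37.0% of them higher in place of 48.1%. In bound RNA that share was 43.3%. Leaving out 1 unbound library gave 124 to 369 calls, 59 to 201 higher and 62 to 193 lower. The change differing between fractions gave 0 calls except without a filter on low values, with 5 (1 higher, 4 lower). The cause of these moves was not tested. For the bound change the median SE was 0.303 in the full fit, 0.287 with the 6 libraries alone and 0.349 with the 12 bound libraries. The full fit takes its spread from all 24 libraries, with bound and unbound libraries of the same mice entered as independent. Directions that turned were those of genes not called. With 1 library left out, Cdkn1a ranged from -0.436 (without the day 2 library 1) to 0.75, Hnf4a from -0.049 to 0.469 and Aqp2 from -1.72 to 0.151, the last 2 turning without the day 2 library 3. Hnf4a was also at -0.076 after quantile normalization. The naming rule took the largest rises and falls only from calls with non-overlapping libraries. Of those named in the text, all but Arg1 stayed called in each of the 6 fits that leave out a library. Of all 126 called genes named, 69 did so, and 61 also stayed called in every other setting.

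Replicate numbers recur at both days, but the days hold different mice, and deviations of same-numbered bound libraries correlated at -0.03, -0.04 and -0.10. A fit with the replicate number as a block called 1113 bound genes (554 higher, 559 lower) and 586 unbound genes. For the difference between fractions, bound and unbound libraries of 1 number were taken to come from the same mouse, which their titles do not state. Their deviations correlated at 0.27 to 0.43, and the fit with this pairing as a block called 0 genes. Inferred depth ranged from about 17100000 to 23900000 reads among the 6 libraries, and its part in the counts was not tested. The number of mice limits the precision.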

Other observations

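The genes of this paragraph were chosen after their values were seen. The metallothioneins, small proteins that hold zinc and copper, were high in the day 2 bound libraries and nearly equal among the day 7 libraries. Mt1 was at 1170.3, 3410.2 and 7159 RPKM at day 2 and 818, 814 and 823 at day 7 (log2 fold change -1.90, SE 0.42, adjusted p = 0.0084). Its call was lost in fits of the 6 or the 12 bound libraries (limma adjusted p up to 0.167). Mt2 was at 298, 819 and 1493 RPKM at day 2 and 88.3, 75.5 and 102 at day 7 (log2 fold change -3.01, SE 0.47, adjusted p = 0.00071). A few genes of fuel and fat handling fell. Pdk4, which holds back glucose oxidation, was at 13.3, 15.8 and 14.4 RPKM at day 2 and 2.03, 2.32 and 4.47 at day 7 (log2 fold change -2.18, SE 0.39, adjusted p = 0.0019). The thioesterase Acot2 changed by -1.21 and the lipid droplet coat protein Plin2 by -1.15, calls kept in 3 and 2 of the 6 fits that leave out a library. Apoc2, an apolipoprotein, fell (-3.10, kept in 3), whereas Apoe rose, from 22.8, 42.9 and 34.5 RPKM at day 2 to 188, 105 and 124 at day 7 (log2 fold change 2.04, SE 0.49, adjusted p = 0.014), kept in 4. Gpx1, a glutathione peroxidase, was at 1602, 3252 and 3308 RPKM at day 2 and 7236, 11258 and 11101 at day 7 (log2 fold change 1.90, SE 0.35, adjusted p = 0.0024), without overlap. The Gpx1 call was lost without a filter on low values and in fits of the 6 or the 12 bound libraries (limma adjusted p up to 0.125). Kap, an androgen-regulated protein of proximal tubules, was at 2510.4, 2714 and 9602 RPKM at day 2 and 24707, 16917 and 12309 at day 7 (adjusted p = 0.036), a call kept in 1 of the 6 fits that leave out a library.

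Ttc36, chosen after its values were seen, was at 81.6, 46.96 and 81.4 RPKM in the day 2 and 1563, 997 and 791 in the day 7 bound libraries, without overlap. It missed the threshold (log2 fold change 3.97, SE 1.23, adjusted p = 0.054), and its change in unbound RNA was 0.12.

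By annotated class, 22 of 243 antisense genes rose (9.05%) and 2 fell, and 24 of 234 lincRNA genes rose (10.3%) and 4 fell, while among 12376 protein-coding genes 419 rose and 473 fell. The sources do not say whether counting used strand, so antisense reads cannot be told apart from those of the partner gene.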
